A study of Homo sapiens with 21 samples.

Results

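Low oxygen changed the RNA of FADU cells in both directions. FADU is an established human line from a squamous cell carcinoma of the hypopharynx, a head and neck cancer. The cells carried a scramble control siRNA (Scr-si) and were kept for 18 h either under normoxia, at 18% O2, or under hypoxia, at 1% O2, with 2 RNA-seq libraries of each condition. The comparison covered the 15711 genes, of 19505 listed, that reached 1 in 2 or more of these 4 libraries. Values are TMM-normalized CPM, that is, read counts scaled to library size with a correction by the trimmed mean of M values. The same table held 2 libraries of hypoxic cells with a METTL4 siRNA, which served here only for the estimate of the spread, and a renal pelvis line, BFTC909, treated in the same way is given side by side. The series holds 21 libraries in all. The labels do not say whether the libraries of a group came from separate cultures, so the p-values measure only the spread between these libraries, all of 1 cell line.

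Cells sense oxygen through the prolyl hydroxylases of the EGLN family. With oxygen present these enzymes mark the α subunits of the hypoxia-inducible factors (HIFs) for destruction through VHL. When oxygen is short the subunits persist, pair with ARNT and bind DNA at short motifs with the core RCGTG. Genes known to follow include glucose transporters, glycolytic enzymes, the carbonic anhydrase CA9 and several of the hydroxylases themselves, while ribosome production and mitochondrial respiration are known to be lowered in many cell types.

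The 4 libraries held between 22349368 and 24864024 reads on genes. Squamous markers were abundant, with KRT5, a basal keratin, at 2819 and 2580 in normoxia and 2023 and 2245 in hypoxia, and 12 of 12 such markers passed the filter. Normoxia replicate 1 stood apart. It held 12 tested genes at 5 times or more the value of every other Scr-si library, and 8 of these were also high in replicate 1 of the METTL4-si libraries. GATA3, a luminal factor of breast and urothelium, was at 41.1 there against 2.19, 3.19 and 3.15. The 8 listed markers of luminal breast epithelium, 6 of them tested, summed to 202 in normoxia replicate 1 and to 47.0 to 56.0 in the other 3 libraries. Fibroblast markers were listed for 3 of 12, with COL5A1 called up and COL3A1 below the filter. Their sum was also higher in normoxia replicate 1, at 35.5 against 11.2 in replicate 2, with 47.3 and 53.5 in hypoxia. In the METTL4-si libraries it was 139 and 15.6. Markers of endothelium, blood, hepatocytes, urothelium, neurons and embryonic kidney were each listed for 1 to 3 genes. The endothelial markers CDH5 and VWF fell, and the sum of that list was 12.8 and 12 in normoxia and 4.67 and 4.70 in hypoxia; the part of such cells in the results was not tested. Of the 12 genes 0 were called, but their gap between the normoxia libraries widened the spread, so a call was unlikely from the start. Together they took 0.155% of the values of that library. This includes AC079949.1 at 530 and MT-RNR2 at 355, which were at 6.82 and 3.31 in METTL4-si replicate 1. Genes below the filter are left out, so this share does not measure the RNA of other cells. The main counts were also made without normoxia replicate 1. In bulk RNA, fewer cells of a kind and less RNA in each cell cannot be told apart.

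A gene was called when it differed by at least 1.3-fold with an adjusted p under 0.05 in limma on log2(value + 1). By this rule 1673 genes rose and 1661 fell, 10.6% of the genes tested in each direction. The libraries of the groups did not overlap in any of them, which with 2 libraries a group almost follows from the call itself. The rises were larger: 334 genes rose and 186 fell by at least 2-fold, and 43 rose and 16 fell by at least 4-fold. The median log2 fold change was 0.65 among genes up, -0.58 among genes down and -0.02 over all genes tested. Set against normoxia replicate 2 alone, 1577 of the genes up and 1574 of the genes down still differed by at least 1.3-fold. The sign could not change here, since the groups did not overlap in any called gene. Replicate 2 was also part of the main comparison, so this is no independent check. Without normoxia replicate 1 and METTL4-si replicate 1, 2081 genes were up and 2124 down, and these held 1552 and 1549 of the original calls; the spread then came from the pair of Scr-si hypoxia libraries alone. With normoxia replicate 1 alone left out the counts were 698 and 628. When each library was centred on its median, which moved log2 values by 0.06, 1914 genes were up and 1217 down, so the share of rises among calls went from 50.2% to 61.1%.

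**Figure D1:**
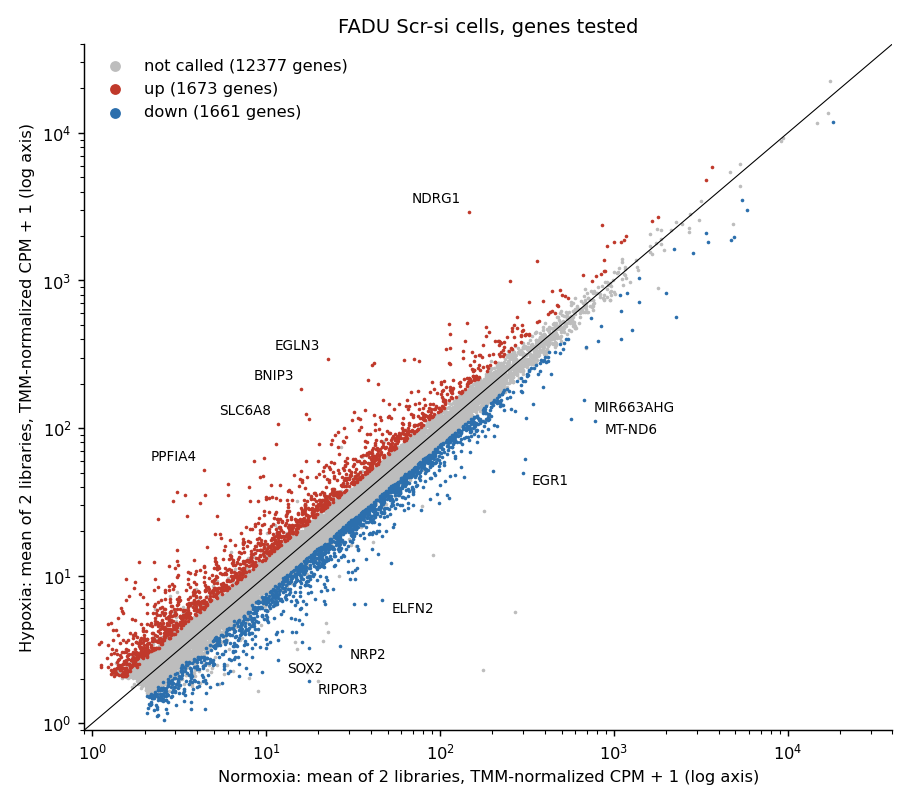
Mean value of each tested gene in the 2 normoxia libraries (horizontal) and the 2 hypoxia libraries (vertical) of FADU Scr-si cells, as TMM-normalized CPM + 1 on log axes, with 1673 genes called up in red, 1661 called down in blue and the line of equality. NDRG1 lies farthest above the line among the labelled genes, and NRP2, ELFN2, EGR1 and MT-ND6 lie below it.

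The genes that rose most were classic responders to low oxygen together with genes of other functions. NDRG1, a stress-responsive gene linked to differentiation and metastasis, was at 144 and 146 in normoxia and 2650 and 3135 in hypoxia, a 19.8-fold difference of the means after 1 was added to each, with an SE of 0.10 on the log2 scale (adjusted p = 6.68e-06 by limma). Changes below are log2 fold changes, hypoxia minus normoxia, ± SE. EGLN3, the hydroxylase that marks HIF α subunits, went from 19.9 and 23.2 to 274 and 311 (3.70 ± 0.10). BNIP3, a receptor for mitophagy, went from 14.4 and 15.4 to 188 and 175 (3.52 ± 0.09). In each of these genes both hypoxia libraries lay at 10 times or more the higher normoxia library. CA9, which sets extracellular pH, rose from 2.33 and 2.55 to 31.0 and 37.8 (3.36 ± 0.15). ANGPTL4, a secreted inhibitor of lipoprotein lipase, rose from 3.28 and 3.66 to 29.6 and 38.3 (2.96 ± 0.15). The 12 largest rises also held SLC6A8, the creatine transporter, which went from 11.5 and 9.87 to 100.1 and 112 (3.19 ± 0.17). TCAF2, a regulator of the channel TRPM8, went from 2.24 and 1.88 to 34.3 and 37.6, and PPFIA4, a liprin of cell contacts, from 3.16 and 3.62 to 50.3 and 51.9. DNAH11, an axonemal dynein, went from 1.79 and 2.01 to 32.7 and 29.8. RIMKLA, a synthase of N-acetylaspartylglutamate, and TMEM45A rose by 3.34 and 2.88. All of these genes kept their call under every alternative run.

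The motif bound by HIF was looked up in promoters from RefSeq on GRCh38.p14, in the 250 bases before each start site. The 4 rising genes below are chosen examples of how ACGTG can lie near or far from the start, or overlap itself. NRP2, a strongly falling gene described further on, holds none. These examples do not stand for rises and falls in general. Capitals mark ACGTG on the printed strand or CACGT, its reverse complement, and the palindrome CACGTG counts as both. The other form of the core, GCGTG, is not marked.
CA9 promoter, chr9:35673678-35673927, plus strand: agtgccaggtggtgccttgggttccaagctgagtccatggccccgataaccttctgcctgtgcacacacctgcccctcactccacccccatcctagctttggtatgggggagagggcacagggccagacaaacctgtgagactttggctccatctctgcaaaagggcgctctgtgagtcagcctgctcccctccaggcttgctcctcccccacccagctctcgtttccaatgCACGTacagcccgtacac
BNIP3 promoter, chr10:131981924-131982173, minus strand: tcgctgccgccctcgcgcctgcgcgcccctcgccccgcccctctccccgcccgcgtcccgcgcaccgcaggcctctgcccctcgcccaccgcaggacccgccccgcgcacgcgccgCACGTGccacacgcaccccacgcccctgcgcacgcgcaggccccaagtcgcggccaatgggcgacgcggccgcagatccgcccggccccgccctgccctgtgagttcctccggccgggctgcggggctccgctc
PPFIA4 promoter, chr1:203026241-203026490, plus strand: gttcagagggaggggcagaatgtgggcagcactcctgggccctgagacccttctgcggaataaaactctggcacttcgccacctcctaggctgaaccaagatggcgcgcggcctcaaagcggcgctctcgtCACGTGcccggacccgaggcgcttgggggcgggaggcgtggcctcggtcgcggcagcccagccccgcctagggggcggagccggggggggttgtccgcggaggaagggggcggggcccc
ANGPTL4 promoter, chr19:8363905-8364154, plus strand: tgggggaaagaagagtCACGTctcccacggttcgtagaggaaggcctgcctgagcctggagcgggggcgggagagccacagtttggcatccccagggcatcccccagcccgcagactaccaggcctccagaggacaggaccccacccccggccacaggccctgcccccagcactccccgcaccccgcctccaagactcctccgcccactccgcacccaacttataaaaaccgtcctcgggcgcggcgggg
NRP2 promoter, chr2:205682251-205682500, plus strand: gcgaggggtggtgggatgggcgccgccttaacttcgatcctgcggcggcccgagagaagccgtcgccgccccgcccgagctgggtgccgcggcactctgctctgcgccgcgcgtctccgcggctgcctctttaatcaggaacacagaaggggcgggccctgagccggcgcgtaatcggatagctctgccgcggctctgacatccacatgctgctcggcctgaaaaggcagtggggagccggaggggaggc
The motif began 18 bases before the start site in CA9, 134 and 133 in BNIP3, 119 and 118 in PPFIA4, and 234 in ANGPTL4. Over all matched promoters, ACGTG or CACGT was found in 29.4% of the 377 promoters of genes up by at least 2-fold, in 23.2% of the promoters of all genes up, in 23.8% of those of genes down and in 22.4% of the 15445 promoters of genes tested. The related core GCGTG or CACGC was in 33.7% of promoters of genes up by at least 2-fold and in 43.2% of those of genes tested. The table held promoters for 10583 of the tested genes. A match of 5 letters is a description and not a binding site, and no test was made of these shares.

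Known HIF targets outside glycolysis rose in most cases. Of 24 such genes 21 were called up and 1 down, with a median log2 fold change of 1.59, against 10.6% of all genes in each direction. ADM, the vasodilator adrenomedullin, rose from 7.81 and 7.19 to 57.5 and 60.9. BNIP3L, like BNIP3 a mitophagy receptor, rose from 35.2 and 39.5 to 199.9 and 223, and DDIT4, an inhibitor of mTORC1, from 141 and 143 to 492 and 533. The exception was VEGFA, the main angiogenic growth factor. It was at 237 and 248 in normoxia and 176 and 189 in hypoxia, so both hypoxia libraries were lower, by -0.41 ± 0.08 on the log2 scale (adjusted p = 0.0127 by limma). In BFTC909 the same gene rose by 2.49, from 70.2 and 83.8 to 440 and 432. TFRC and EPAS1 were the remaining members that were not called, at 0.09 and 0.12. Glycolysis, for comparison, had 21 of 22 genes up with a median of 1.35, among them PDK1, which keeps pyruvate out of mitochondria, from 39.7 and 40.1 to 263 and 271. PFKM, the muscle phosphofructokinase, was the member not called, at -0.30.

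Among oxygen sensors, hydroxylases changed. Besides EGLN3, EGLN1, the main HIF prolyl hydroxylase, rose from 33.7 and 33.5 to 114 and 115 (1.74 ± 0.07), while EGLN2 fell from 22.8 and 24.3 to 17.2 and 17.2 (-0.43 ± 0.10). HIF1A RNA was lower in both hypoxia libraries, at 157 and 155 against 204 and 197, but its log2 difference of -0.36 was under the 1.3-fold limit, and ARNT, VHL and HIF1AN, the factor-inhibiting hydroxylase, were not called. In all 3 of the 11 tested members were up and 1 was down, against 10.6% of all genes in each direction. Other enzymes that use oxygen and 2-oxoglutarate rose as well. Among JmjC histone demethylases 7 of 15 were up and 0 down. KDM3A, which removes methyl groups from H3K9, went from 71.3 and 77.9 to 279 and 286, KDM7A from 8.39 and 9.07 to 22.7 and 26.7, and KDM5B from 80.4 and 80.5 to 152 and 162. KDM4B and KDM4C rose by 1.25 and 1.00. The groups did not overlap in any of these demethylases, as in every called gene.

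Genes of the extracellular matrix and of storage metabolism were among the rises. In each direction 10.6% of all genes were called, and the counts of the lists below are small. Of 14 collagen hydroxylases and lysyl oxidases, the enzymes that shape and crosslink collagen, 6 were up and 1 down. PLOD2 rose from 110 and 113 to 485 and 529, P4HA1 from 67.7 and 72.1 to 285 and 301, and LOX from 1.95 and 2.23 to 9.62 and 13.6. LOXL3 was the member called down, at -0.53. In glycogen metabolism 6 of 15 rose and 1 fell. PPP1R3C, a subunit that brings phosphatase to glycogen, went from 2.16 and 2.01 to 14.4 and 13.7, the branching enzyme GBE1 from 19.1 and 19 to 48.1 and 47.5, and the phosphorylase PYGL from 130.2 and 139 to 287 and 304. Enzymes of both storage and release were thus among the rises, whereas GYG1, the glycogenin primer, fell by -0.61. Around lipid droplets 5 of 15 were up and 1 down, with HILPDA, an inhibitor of lipolysis, from 8.77 and 8.76 to 25 and 27.7 and the droplet coat protein PLIN2 from 14.4 and 16.0 to 37.9 and 48.6. In mitophagy and autophagy 4 of 14 rose, which besides BNIP3 and BNIP3L were GABARAPL1 (1.22) and MAP1LC3B (0.53), both of the family that coats autophagosomes. Of 13 genes of acid and ion handling 4 rose and 2 fell. The rises were CA9, CA2 and the lactate carriers SLC16A3 and SLC16A1, the latter from 428 and 486 to 595 and 609. Against normoxia replicate 2 alone SLC16A1 was at 0.31, under 1.3-fold, and without normoxia replicate 1 and METTL4-si replicate 1 the list had 3 rises.

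Angiogenic factors rose and fell. Of 16 tested members 7 rose and 4 fell, against 10.6% of all genes in each direction. PGF, the placental growth factor, rose from 4.65 and 5.45 to 30.5 and 37.7 (2.53 ± 0.14), and VEGFC, the lymphatic growth factor, from 6.86 and 7.24 to 33.3 and 28.7 (1.99 ± 0.11). Besides the growth factor VEGFA, described above, receptors and coreceptors fell. NRP2, a coreceptor for VEGFC and semaphorins on chromosome 2 (206546714 to 206662857, GRCh37), went from 25.8 and 25.5 to 2.43 and 2.23, a log2 fold change of -3.00 ± 0.12 (adjusted p = 1.90e-05 by limma). NRP1 went from 72.1 and 63.2 to 40.2 and 35.3, and the ephrin receptor EPHA2 from 267 and 272 to 127 and 133, while its ligand EFNA1 rose by 0.99.

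**Figure D2:**
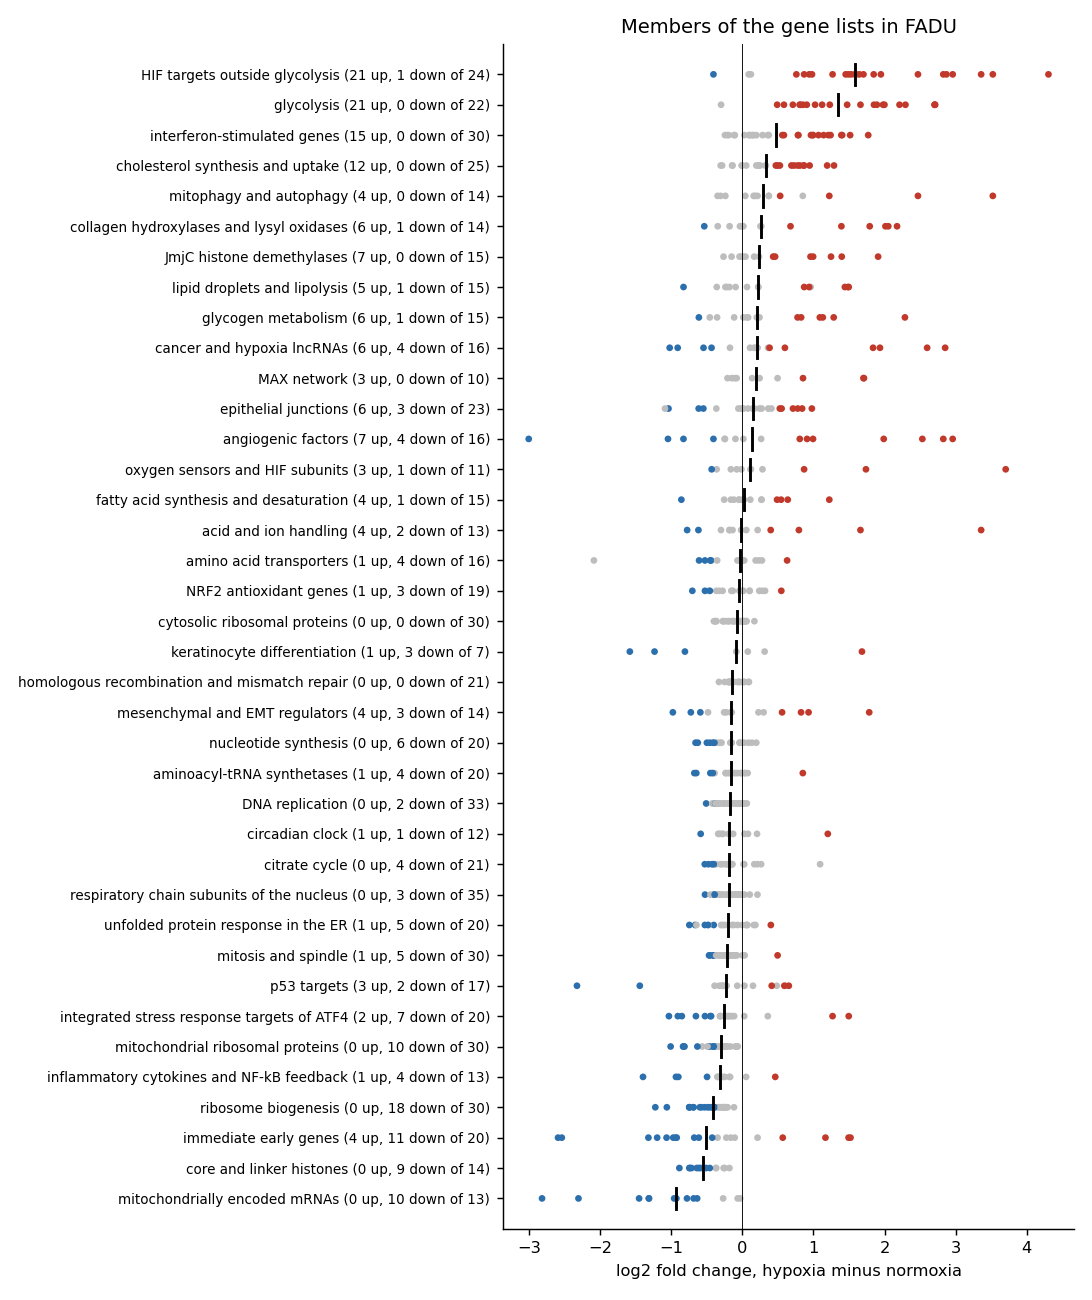
Log2 fold change (hypoxia minus normoxia) of every tested member of the gene lists in FADU, 1 point a gene, red when called up, blue when called down and grey when not called, with the list median as a black bar and the counts beside each name. HIF targets, at a median of 1.59, are at the top, and mitochondrially encoded mRNAs, at -0.93, are at the bottom.

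Beyond the oxygen response, 2 lists of other pathways held many rises. Of 25 genes of cholesterol synthesis and uptake 12 were up and 0 down, with a median of 0.33. Over all genes 10.6% were called in each direction. INSIG1, which holds the sterol sensor SCAP in the endoplasmic reticulum, went from 126 and 144 to 298 and 367, the sterol carrier STARD4 from 82.4 and 95.3 to 191 and 218, and HMGCS1, an early enzyme of the pathway, from 246 and 272 to 437 and 509. SQLE, an epoxidase later in the pathway, rose by 0.50. SREBF2, the factor that drives these genes, and the demethylase CYP51A1 were not called, at -0.01 and -0.28. In BFTC909 3 of 24 were up. For fatty acid synthesis the count was 4 up and 1 down of 15, with ACSS2, which makes acetyl-CoA from acetate, from 22.5 and 24.6 to 49.2 and 64.3. The other list was of interferon-stimulated genes, 15 of 30 of which were up and 0 down, with a median of 0.47. IFI27 rose from 9.27 and 8.62 to 30.1 and 35.9, IFIT2, which binds foreign RNA, from 31.6 and 34.4 to 95.0 and 97.4, and OASL from 49.7 and 50.3 to 111 and 128. RIGI, the cytosolic RNA sensor, rose by 0.97. USP18 and IRF7, which tune the interferon signal, were not called, at -0.24 and 0.10. In BFTC909 5 of 19 were up and 2 down, and RIGI fell by -0.65. Without normoxia replicate 1 and METTL4-si replicate 1 12 sterol genes were up and 1 down, and 15 interferon-stimulated genes were up and 0 down.

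Epithelial and mesenchymal genes had calls in both directions. Of 23 junction genes 6 rose and 3 fell, against 10.6% of all genes in each direction. The counts of this list and of those below are small. CDH1, E-cadherin, rose from 253 and 212 to 365 and 397, and the desmosomal genes PKP1, DSG3 and DSC2 rose by 0.84, 0.55 and 0.53, while CLDN4 fell from 38.7 and 38 to 15.9 and 20.8 and EPCAM from 179 and 197 to 122 and 123. Among 14 mesenchymal genes and regulators of epithelial-mesenchymal transition 4 rose and 3 fell. ITGA5, the fibronectin receptor subunit, went from 32.6 and 32.7 to 107 and 124, and SNAI2 from 32.4 and 28.4 to 53.8 and 55.4. SNAI1 and TWIST2 fell, by -0.59 and -0.72, and TWIST1 was not called at -0.26. The list's median was -0.16, and 0.39 when genes with a mean under 5 were left out. Of the 12 squamous markers 5 rose, KRT14, TP63, SFN, DSG3 and PKP1, and KRT6A fell, by -0.63. KRT14, a basal keratin, and TP63 rose by 0.78 and 0.66, while KRT5, the partner of KRT14, was lower in both hypoxia libraries without passing the test (-0.34, adjusted p = 0.0501 by limma), and KRT17 was at -0.02. Of 7 tested genes of keratinocyte differentiation 3 fell, the mucosal keratins KRT13 and KRT4 and the protease KLK10, and TGM1, the cornified envelope transglutaminase, rose from 8.97 and 9.83 to 28.8 and 36.3. Another 14 members of that list did not pass the filter or had no matched entry.

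Among falls, there were many genes of the growth factor and MAP kinase response. Of 20 immediate early genes 11 fell and 4 rose, with a median of -0.52, against 10.6% of all genes in each direction. EGR1, a zinc finger factor induced within minutes by growth signals, went from 308 and 289 to 47.1 and 50.4 (-2.59 ± 0.07; adjusted p = 6.68e-06 by limma), and DUSP4, a phosphatase of MAP kinases, from 35.9 and 36.4 to 6.02 and 4.83 (-2.54 ± 0.30). FOS, FOSB and IER2 fell by -1.20, -1.32 and -1.06. The members that rose were FOSL2, from 54.8 and 44.8 to 136 and 153, ATF3, KLF6 and KLF4. In BFTC909 DUSP4 fell by -3.52 and EGR1, at 2.86 to 3.42 in its 4 libraries, was not called. The cytokines LIF and IL1B, in a list with 4 falls and 1 rise among 13 tested, went from 15.4 and 16.3 to 5.39 and 5.43 and from 45.8 and 48.2 to 25.7 and 22.7.

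The largest falls of all belonged to genes of varied function. RIPOR3 went from 16.0 and 17.2 to 0.944 and 0.912 (-3.19 ± 0.15). ELFN2, a synaptic membrane protein, went from 47.5 and 43.5 to 5.89 and 5.75, and AQP3, the water and glycerol channel of epithelium, from 311 and 308 to 56.6 and 64.8. In all 3 the hypoxia libraries were at a small part of the normoxia values. SOX2, a stem cell factor of squamous epithelium, went from 11.5 and 9.92 to 1.71 and 1.64 (-2.13 ± 0.13). GDF15, a stress cytokine and target of p53, went from 33.0 and 29.1 to 4.94 and 5.88, and PLK3, of the same list, fell by -1.44. The list of p53 targets as a whole held 3 rises and 2 falls of 17 tested, against 10.6% of all genes in each direction. ALPP, the placental alkaline phosphatase, fell by -2.20, and close copies of it exist. A further 6 genes, named because they met every condition except a 1.3-fold difference from normoxia replicate 2, were NOC4L, NTHL1, MRPS2, YJU2, ZNF576 and SETD1A, with log2 fold changes of -0.50 to -0.46 against both normoxia libraries and of -0.38 to -0.31 against replicate 2.

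RNA of the mitochondrial genome fell. All but 3 of its 13 mRNAs were called down, with a median of -0.93, and -0.81 against normoxia replicate 2 alone. MT-ND6, the mRNA of the light strand, went from 831 and 728 to 118 and 102 (-2.81 ± 0.11; adjusted p = 1.57e-05 by limma), and MT-ATP8 from 596 and 534 to 112 and 115 (-2.30 ± 0.13). MT-ND2 went from 5310.0 and 4541 to 2011 and 1947, and MT-CO2 from 5846 and 5061 to 3559 and 3452. MT-ND5, MT-ND4 and MT-CO1 were not called, at -0.27, -0.06 and -0.03. The size of the fall thus differed between mRNAs of the same genome, most of which are cut from a shared long transcript. In BFTC909 1 of the 13 rose and 1 fell, the latter MT-ND6 at -1.10. The strand setting of the counting is not given in the sources used here, so reads of the opposite strand at MT-ND6 cannot be told apart from its own. Nuclear copies of these genes can share reads with them, and the nuclear copy MTND6P4, which fell by -2.42, is uncertain for that reason. The mitochondrial ribosomal RNA MT-RNR2, which depletion removes, was at 354.9 in normoxia replicate 1 and 1.65 in replicate 2, against 31.8 and 21.4 in hypoxia, and the part of this difference in the result was not tested.

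**Figure D3:**
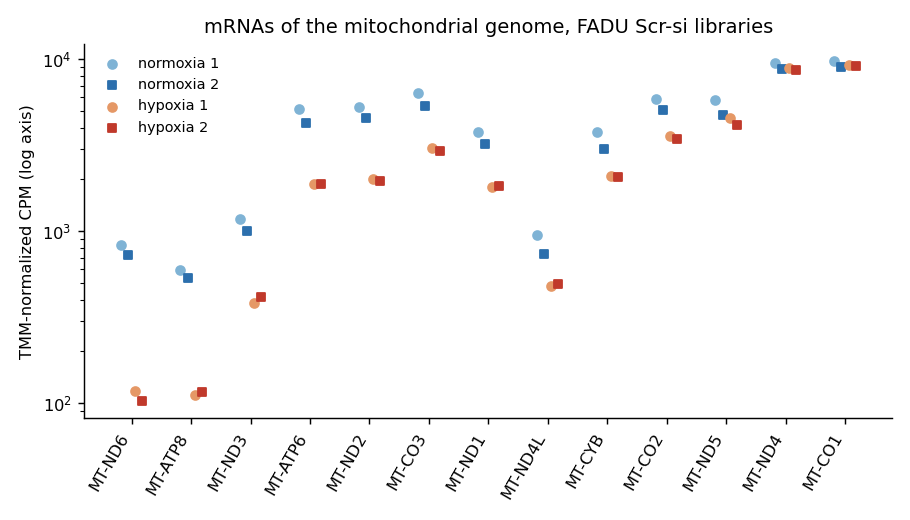
Value of the 13 mRNAs of the mitochondrial genome in the 4 FADU Scr-si libraries, as TMM-normalized CPM on a log axis, ordered by log2 fold change. From MT-ND6 on the left, at 728 to 831 against 102 to 118, the gap between normoxia and hypoxia narrows to MT-CO1 on the right, where the difference was -0.03.

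Nuclear genes for mitochondria moved less. Of 30 mitochondrial ribosomal proteins 10 fell and 0 rose, with a median of -0.29, for example MRPL12 from 15.2 and 14 to 6.47 and 7.02. Of 21 genes of the citrate cycle 4 fell, among them IDH3A, OGDH and IDH3B, at -0.53, -0.42 and -0.40. Of 35 nuclear subunits of the respiratory chain 3 fell in the main fit, a share below the 10.6% over all genes, although the median was -0.19. Without normoxia replicate 1 and METTL4-si replicate 1 the medians of these lists, in the same order, were -0.35, -0.23 and -0.27. More members of each list were called down in that fit, as over all genes. The low share of the respiratory chain was not kept there.

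Genes of ribosome production fell. Of 30 ribosome biogenesis factors 18 fell and 0 rose, with a median of -0.41. RRS1, needed for the large subunit, went from 31.3 and 25.6 to 13.2 and 10.1, RRP9 from 19.4 and 17.9 to 8.36 and 8.48, and NCL, nucleolin, from 1168 and 1211 to 870 and 778. In BFTC909 28 of the 30 fell. The cytosolic ribosomal proteins themselves had 0 calls by limma among 30, with a median of -0.07. At an unadjusted p under 0.05, 6 were lower and 0 higher, edgeR called 0, and without normoxia replicate 1 and METTL4-si replicate 1 limma called 2 down. Small nucleolar RNAs, which guide changes to ribosomal RNA, had 43 of 121 down and 3 up. Small nuclear RNAs, a class that includes those of the spliceosome, had 23 of 58 down and 4 up. Over all genes 10.6% were called in each direction. RN7SK, which restrains transcription elongation, went from 18533 and 17845 to 11648 and 11941, and SNORA31 fell by -1.48. In BFTC909 5 of 74 small nucleolar RNAs and 0 of 21 small nuclear RNAs were down, and the difference between the lines was not tested. Many of these RNAs have near-identical copies or lie within host genes, so their values are uncertain. Small RNAs and other minor classes together had a median value of 1.64, near the filter of 1, against 29.5 for protein-coding genes.

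Some genes of growth and division fell. Of 14 core and linker histones 9 fell and 0 rose, with a median of -0.55. H2AX went from 178 and 149.9 to 88.8 and 87.1, and H4C3 from 179 and 198 to 108 and 116. In nucleotide synthesis 6 of 20 fell, CAD, ADSL, ATIC, TYMS, CTPS1 and UMPS, by -0.66 to -0.39. In mitosis 5 of 30 fell, among them PLK1 from 184 and 173 to 134 and 135, at -0.36 and so under 1.3-fold against normoxia replicate 2 alone, and ANLN, a scaffold of cell division, rose by 0.50. DNA replication had 2 falls of 33, MCM5 (-0.51) and GINS3 (-0.38), a share under the 10.6% of all genes, and homologous recombination and mismatch repair had 0 of 21 by limma, with 2 lower at an unadjusted p under 0.05 and 0 called by edgeR. The medians of these 2 lists were -0.17 and -0.14, where all genes had -0.02. In BFTC909 18 of the 33 replication genes fell.

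Stress pathways that respond to unfolded proteins and scarce amino acids held more falls than rises. Of 20 targets of ATF4, the factor of the integrated stress response, 7 fell and 2 rose, with a median of -0.26. ATF5 went from 27.1 and 23.0 to 11.6 and 11.8, CHAC1, which breaks down glutathione, from 8.68 and 7.37 to 3.19 and 4.51, and SLC7A5, the carrier of large amino acids, from 2275 and 2136 to 1596 and 1659. The members that rose, VLDLR and STC2, are also induced by HIF. In BFTC909 15 of the 20 rose and 1 fell, with a median of 0.89. For the unfolded protein response in the endoplasmic reticulum 5 of 20 fell and 1 rose, with the chaperone HSPA5 from 691 and 787 to 549 and 568 and its partner DNAJB11 from 142 and 146 to 87.2 and 84.1. Aminoacyl-tRNA synthetases had 4 falls and 1 rise of 20, and amino acid transporters 4 falls and 1 rise of 16. Among 19 antioxidant targets of NRF2 3 fell and 1 rose, with the cystine carrier SLC7A11 from 206 and 226 to 145 and 155. Over all genes 10.6% were called in each direction. The NRF2 list was near that share in total, and the counts of the other lists are small.

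In the clock list, BHLHE40, a repressor known to respond to HIF, rose from 187 and 177 to 402 and 439 while PER2 fell by -0.58. These were the only calls among 12, in each direction under the 10.6% of all genes. In the network of MAX, the partner of MYC, 3 of 10 rose, ARRDC4, MXI1 and MXD4, with MXI1, an antagonist of MYC, going from 8.85 and 9.20 to 27.9 and 35.9. MYC itself was not called, at 182 and 170.2 against 162 and 165.

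Long noncoding RNAs rose more often than they fell. Of 1587 tested lncRNAs 210 (13.2%) were up and 93 (5.86%) down, against 10.5% and 11% of protein-coding genes. The median value was 2.43 for lncRNAs, closer to the filter of 1, and 29.5 for protein-coding genes. The part of this level in the contrast was not tested. MIR210HG, the host transcript of the hypoxia-induced microRNA miR-210 on chromosome 11 (565657 to 568457, GRCh37), went from 2.58 and 2.46 to 23.4 and 25.4 (2.85 ± 0.12; adjusted p = 3.05e-05 by limma). HIF1A-AS3 rose from 0.582 and 0.536 to 7.68 and 9.26, and H19, an imprinted transcript, from 120.3 and 105 to 406 and 459. SLC2A1-DT, a divergent transcript of the glucose transporter gene, rose by 2.07. UCA1 rose from 26.8 and 27.6 to 98.3 and 101, and in BFTC909 it fell from 127 and 125 to 30.3 and 29.4. Among falls, MIR663AHG, from a region near the centromere of chromosome 20, went from 607 and 739 to 147 and 162 (-2.11 ± 0.12), and the snoRNA hosts SNHG3 and SNHG8 and the transcript DANCR fell by -0.91, -0.96 and -1.02. Of the 16 tested lncRNAs known in cancer or hypoxia 6 rose and 4 fell. MALAT1 and NEAT1 were not called, at 0.36 and 0.22.

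The called genes differed in sequence composition. The longest annotated transcript had a median GC content of 45.6% among genes up, 53% among genes down and 47.3% among all genes tested. With genes split by GC content into 5 groups of equal size, from the lowest to the highest, the share called down went from 5.60% to 18.2% and the share called up from 11.7% to 7.20%. In BFTC909 the share called down went from 21.7% to 17.0% over the same groups, the opposite order. GC content therefore moved with the calls in FADU, and its part in the result was not tested. Along chromosomes, genes up were 19.3% of those tested on chromosome 21, 15.3% on chromosome 7 and 14.7% on chromosome 14, and genes down were 76.9% of the 26 genes of the mitochondrial genome, 18.9% on chromosome 22 and 17.5% on chromosome 19, against 10.6% of all genes.

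Of the 1263 genes up in FADU that were also tested in BFTC909, 594 (47.0%) were up there too, against 16.6% of the 13070 genes tested in both lines, and they made 27.3% of the genes up in BFTC909. Of 1392 genes down, 561 (40.3%) were down, against 19.6%, and they made 21.9% of the genes down in BFTC909. Another 88 of the former and 101 of the latter, 6.97% and 7.26%, were called in the opposite direction. The 2 tables were normalized separately, so the lines were not tested against each other.

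METTL4, the methyltransferase that gave the study its subject, was at 31.9 and 30.8 in normoxia and 26.6 and 25.3 in hypoxia. Both hypoxia libraries were lower, and the log2 difference of -0.26 ± 0.09 did not pass the test (adjusted p = 0.0706 by limma). ZMIZ1, a co-activator of transcription, and N6AMT1 and ALKBH1, enzymes also linked to adenine methylation, were not called either, at 0.25, 0.08 and 0.03. Of these 4 genes 1 was lower at an unadjusted p under 0.05, and edgeR called 0. Over the 39 pathway lists, 714 genes were tested, 24 were listed below the filter and 46 had no matched entry.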

How the data were processed

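RNA-seq libraries of human FADU and BFTC909 cells were made from total RNA with a ribosome-depleting stranded kit and sequenced in pairs. Per the labels and the study's methods, reads were trimmed with Trim Galore, aligned to hg19 with HISAT2 and counted per gene with htseq-count; the versions, the annotation and the strand setting are not given in the sources used here. The authors deposited a normalized signal per gene, TMM-normalized CPM from edgeR, which puts libraries on a common scale but hides a change of total RNA per cell. Whole reads were recovered for 100% of the values (tolerance 0.01 reads). The authors' own comparison tables, which hold fold changes and p-values, were not used.

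Gene identifiers were matched to GENCODE v44 lifted to GRCh37 (18887 of 19505). Values were taken as log2(value + 1) and fitted in limma 3.58.1 (R 4.3.3) over the 6 libraries of the table, with an intensity trend in the moderated variance and Benjamini-Hochberg adjustment over all genes tested; fold changes of low genes are understated on this scale. BFTC909 was fitted alike (14314 genes). edgeR 4.0.16 on the recovered reads was an alternative. Other alternatives were the pseudocount, the filter, the samples in the fit, the variance trend, median centring, a replicate block, the thresholds and leaving out each library. Named genes were the 12 largest changes in each direction that were called, had a mean of at least 5, did not overlap and held at 1.3-fold against normoxia replicate 2, a further 6 falls that missed that last condition, 8 lncRNAs each way, METTL4 and members of 39 lists of genes; RN7SK, SNORA31 and the genes high in normoxia replicate 1 were chosen after their values were seen. A few genes that these rules name are not reported here. The genes and lists were chosen with earlier results of these data known. Lists were described by counts and medians, with no set test. Promoters came from RefSeq on GRCh38.p14, and GC content from GENCODE transcripts. Depth was 22349368 to 24864024 reads; with 2 libraries a group, a small number of replicates limits precision more than counting error does at these depths.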

Additional observations from a re-analysis of the deposited data

Results flagged for a closer look

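Given here are the genes named for the size of their change that were called in opposite directions in FADU and BFTC909 without overlap of the groups in either line, and the lists whose medians had opposite signs in every pairing of libraries and differed by at least 1.3-fold. The difference between the lines was not tested, since the 2 tables were normalized separately. DNAH11 rose by 3.48 on the log2 scale in FADU and had a called change of -0.63 in BFTC909, where its values were 2.15 and 2.35 in normoxia and 1.21 and 1.00 in hypoxia. UCA1 rose by 1.84 in FADU and changed by -2.04 in BFTC909. ENSG00000262202, a lncRNA, had a log2 fold change of -0.93 in FADU and 0.99 in BFTC909. Among members of the lists, VEGFA (-0.41 and 2.49) and RIGI (0.97 and -0.65), for example, were also called in opposite directions. The ATF4 targets of the integrated stress response had a median of -0.26 in FADU and 0.89 in BFTC909. The lncRNAs of cancer and hypoxia had a median of 0.20 in FADU and -0.20 in BFTC909. Amino acid transporters had a median of -0.03 in FADU and 0.56 in BFTC909, and the FADU value became 0.03 when libraries were centred on their median.

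Outside the genes tested, 77 of the 3794 genes listed below the filter were at 5 times or more in normoxia replicate 1 of FADU than in each other Scr-si library.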

How the results depend on the processing

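Of 17 alternatives set for the counts, the 2-fold limit moved them most. At 2-fold the counts were 334 and 186 in FADU and 573 and 304 in BFTC909. With 1 library left out, in FADU the count of genes up ranged from 552 to 2088 and of genes down from 459 to 2147, lowest without hypoxia replicate 2 and highest without a METTL4-si library; without normoxia replicate 1 they were 698 and 628, without normoxia replicate 2 743 and 576, and without hypoxia replicate 1 679 and 559. In BFTC909 the ranges were 1690 to 2937 and 1831 to 2942. Leaving out a Scr-si library leaves 1 library in a group, which is assumed to vary like the others. In BFTC909 1680 genes were up with a pseudocount of 5 and 1720 with a mean of at least 5, against 2624. All other counts stayed within 1.5 times, edgeR on whole reads giving 1684 and 1690 in FADU. The labels do not say that replicate numbers pair the samples. In FADU differences between replicates correlated at -0.04 between normoxia and hypoxia, at -0.08 between hypoxia and METTL4-si and at 0.51 between normoxia and METTL4-si, whose first replicates share the transcripts high in normoxia replicate 1. With a replicate block the counts were 1673 and 1715 in FADU and 2660 and 2765 in BFTC909.

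No named gene changed sign in any fit. The groups did not overlap in any of them, so leaving out a library could not have changed the sign. Over all refits of named genes 708 kept the result and 44 lost the call, all of the latter of NOC4L, NTHL1, MRPS2, YJU2, ZNF576, SETD1A or ENSG00000262202. Over all refits of list medians 528 stayed the same and 96 moved, by at least the SD between the replicates. Some medians near 0 changed sign. With centred libraries the NRF2 targets went from -0.04 to 0.02 and acid and ion handling from -0.02 to 0.04. Acid and ion handling also changed sign in other fits, and fatty acid synthesis went from 0.02 to -0.04 without hypoxia replicate 2. The fit without normoxia replicate 1 and METTL4-si replicate 1 was chosen after seeing the data. It leaves 1 normoxia library and called more genes in both directions, so counts within lists grew with it. The median of the replication genes went from -0.17 to -0.22, of the NRF2 targets from -0.04 to -0.08 and of the p53 targets from -0.22 to -0.18. The cause of these changes was not tested.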
